A study of Homo sapiens with 4 samples.

Results

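Retinoid metabolism and transport genes were followed through the open chromatin of OPM-2, an established human multiple myeloma cell line, as 9 genes: CYP26A1, CYP26B1, CYP26C1, DHRS3, ALDH1A1, ALDH1A2, ALDH1A3, CRABP2 and STRA6. A deposited peak belonged to one of them when it was the nearest protein-coding gene body (hg38) within 100 kb of the peak summit. The rule found 100 of 307634 peaks, which merged into 45 of 122632 regions. Each of the 9 genes had at least 1 region. The assay, ATAC-seq, reads out accessible chromatin, because the transposase Tn5 can place sequencing adapters only in DNA that is open to it. The 4 groups were cells given ATRA (all-trans retinoic acid, which activates the RAR nuclear receptors) at 1 µM, cells given POM (pomalidomide, a cereblon-binding immunomodulatory drug) at 1 µM, cells given both at those doses (ATRA+POM) and cells given the vehicle DMSO. All were exposed for 72 h, in a study of immunomodulatory drug resistance in t(4;14) myeloma. Each group had 1 library of 1 cell line, so the spread between replicates is unknown and no test was made.

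Retinol enters cells through STRA6, the receptor for retinol bound to its plasma carrier. Retinaldehyde made from it is oxidised to retinoic acid by the dehydrogenases ALDH1A1, ALDH1A2 and ALDH1A3, or is turned back to retinol by the reductase DHRS3. CRABP2 carries retinoic acid to its nuclear receptors, and the cytochrome P450 enzymes CYP26A1, CYP26B1 and CYP26C1 break it down. CYP26A1 and DHRS3 are known in many cell types as genes that retinoic acid switches on through its receptors, which bind direct repeats of a short hexamer, so that the pathway limits its own ligand.

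The sequence before the inner start of CYP26A1 is shown because it was the only one of the 17 member start windows with such a repeat. The sequence before the outer start of STRA6 is shown because peaks overlapped it in 3 of the 4 lists. Both are the 250 bases upstream of the start, from RefSeq on GRCh38.p14, 5′ to 3′ along the gene, and capitals mark the hexamer AGGTCA on either strand, or one of its variants, which are AGTTCA (found in the CYP26A1 sequence), GGGTCA (found in the STRA6 sequence) and GGTTCA (found in neither).
CYP26A1, chr10:93073643-93073892, plus strand: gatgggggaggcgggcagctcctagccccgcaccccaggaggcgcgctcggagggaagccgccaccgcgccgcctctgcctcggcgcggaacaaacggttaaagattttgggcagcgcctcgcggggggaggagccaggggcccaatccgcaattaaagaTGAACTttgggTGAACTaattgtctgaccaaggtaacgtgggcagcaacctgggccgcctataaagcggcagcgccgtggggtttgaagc
STRA6, chr15:74212260-74212509, minus strand: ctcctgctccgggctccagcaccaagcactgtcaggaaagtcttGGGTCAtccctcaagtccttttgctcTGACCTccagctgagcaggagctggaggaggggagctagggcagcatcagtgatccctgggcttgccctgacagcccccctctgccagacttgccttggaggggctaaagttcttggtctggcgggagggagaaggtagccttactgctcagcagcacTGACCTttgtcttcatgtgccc
In the CYP26A1 sequence, 2 hexamers in the same orientation stand 5 bases apart, at chromosome 10, 93073803 to 93073819, which is 90 to 74 bases before the start. On the motif's strand this repeat reads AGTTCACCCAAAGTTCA. Of all 22140 protein-coding start windows of 300 bases, searched on both strands, 17 (0.0768%) held 2 of these hexamers as a direct repeat with that spacing. Direct repeats spaced by 1 base were in 0.131% of windows and those spaced by 2 bases in 0.0361%, and in none of the member windows. A lone hexamer was in 35.5% of all windows and in 8 of the 17 member windows, and each repeat also counts as lone hexamers. These are matches of letters, not measured binding sites.

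The lists held 76636 peaks for ATRA, 69162 for POM, 85434 for ATRA+POM and 76402 for DMSO, called for each library by itself. The smallest summit pileup called, in overlapping reads, was 8 in ATRA, 4 in POM, 7 in ATRA+POM and 8 in DMSO, and the background coverage was 2.36, 0.55, 1.51 and 2.36 reads in the same order, so the POM library was the shallowest. All 9 plasma cell markers, among them SDC1, IRF4 and PRDM1, had a summit in or within 1 kb of the gene in every list. Of 4 T cell markers 2 to 4 did, of 4 myeloid markers 1 or 2, of 3 erythroid markers 1 and of 3 epithelial markers 2. Values below are summit pileups brought to the depth of DMSO by the median ratio over the 42930 regions called in all lists, in reads ("scaled pileup"). Ratios have exact 95% intervals that cover counting error only, since PCR reads without molecular identifiers are not independent molecules. A rank is a peak's place by its −log10 q in its own list, as a percent from the top. In bulk chromatin, fewer cells with an open region and less opening per cell cannot be told apart. Scaling by the recovered background instead would shift every POM to DMSO ratio by 0.77 (log2), every ATRA+POM to DMSO ratio by 0.15 and every ATRA to DMSO ratio by −0.19, so all ratios are relative to the regions common to the lists.

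Of the 45 regions, 15 lay upstream of the gene, 14 inside it and 16 beyond its end. There were 13 over 20 kb from the gene body and 4 within 1 kb of an annotated start. The median width was 470 bp, against 549 bp over all regions. ATRA cells had 26 of the 45 regions, POM cells 19, ATRA+POM cells 24 and DMSO cells 30. Over all merged regions the lists held 62.0%, 54.6%, 68.7% and 61.9% in that order. In the members these are 57.8%, 42.2%, 53.3% and 66.7%. The members' median rank was 60.3% in ATRA, 67.2% in POM, 55.3% in ATRA+POM and 63.9% in DMSO.

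**Figure D1:**
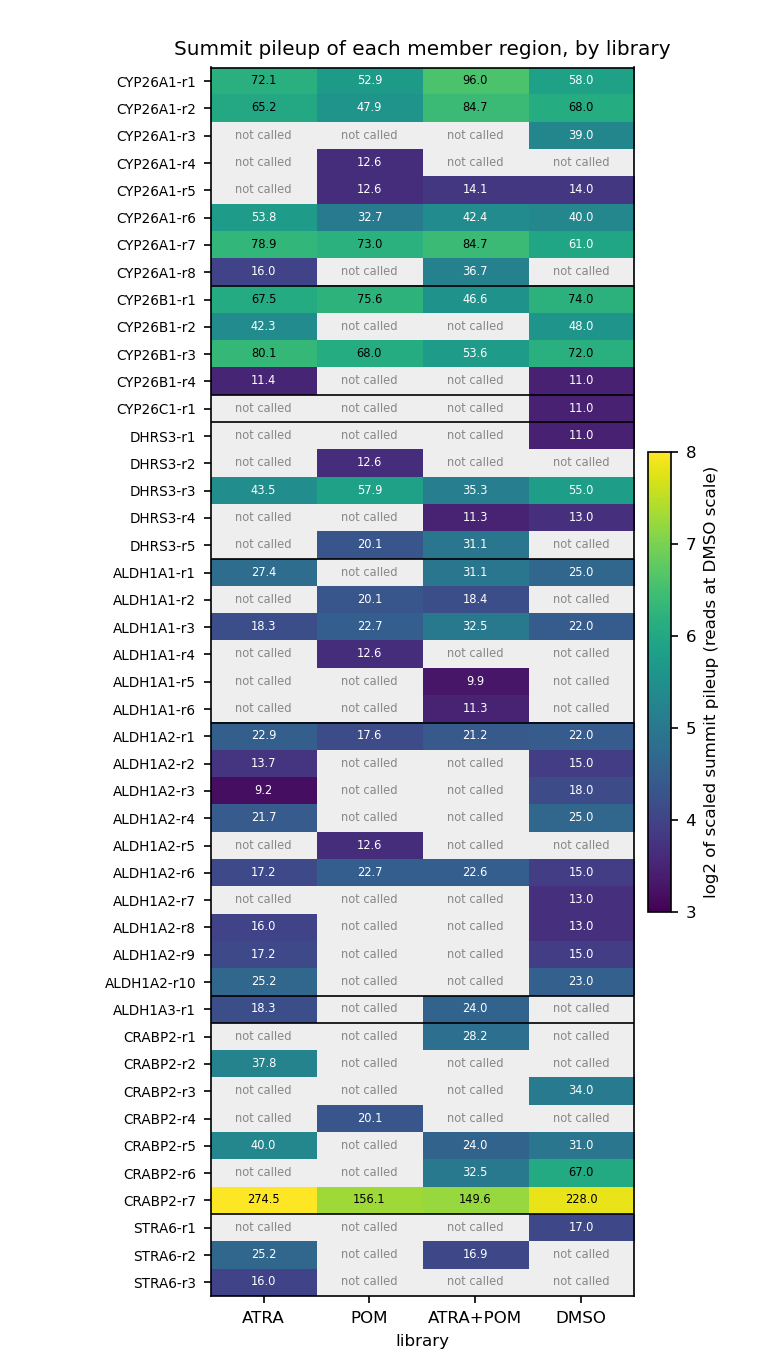
Scaled summit pileup (reads at the depth of DMSO, colour on a log2 scale) of each of the 45 member regions (rows) in each library (columns), with "not called" where a list held no peak. Regions are numbered along the gene's strand from upstream to downstream. CRABP2-r7 is the highest row in every library, and 11 rows are filled in all 4 columns.

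Of the 45 regions, 11 were called in all lists (24.4%, against 35.0% of all regions), 3 in 3 lists, 15 in 2 and 16 in 1 (35.6%, against 35.2% of all regions). The 11 belonged to 6 genes: CYP26A1 with 4, CYP26B1 and ALDH1A2 with 2 each, and DHRS3, ALDH1A1 and CRABP2 with 1 each. All 16 regions found in 1 list lay in the weaker part of it (past a rank of 50%), at ranks between 62.4% and 98.9% and with 5 to 39 reads at the summit before scaling. Unshared peaks were mostly weak whatever their gene. Of all ATRA peaks without a DMSO partner, 14555 of 14967 lay in the weaker part of their list. Of all POM peaks without a DMSO partner, 16623 of 18831 did. Shares over all regions in 1 list were not computed for this, nor those in 2 or 3 lists. In the text a region bears its gene's name and a number counted along the gene's strand, such as CYP26A1-r1 for the most upstream.

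STRA6, the retinol uptake receptor, had no region in all lists. At its outermost start, whose sequence is given above, a peak summit lay 172 bp away in ATRA cells, 193 bp away in ATRA+POM cells and 399 bp away in DMSO cells, and POM cells had none within 1 kb. These summits had 26.3 reads in ATRA, 14.1 in ATRA+POM and 24.0 in DMSO on the scaled measure. The rule gives them to CCDC33, whose gene body overlaps there, so they are not among the 45 regions. The rule gave 3 other regions to STRA6. STRA6-r2 (chromosome 15, 74200574 to 74201001, inside the gene) was called in the ATRA and ATRA+POM lists alone. It had 25.2 in ATRA and 16.9 in ATRA+POM (ratio of ATRA+POM to ATRA 0.673, 0.304 to 1.42). Its ATRA pileup would be 25.2 reads in the DMSO library, where 14 would have sufficed for a call, and 9.99 reads in the POM library, where 6 would have sufficed. At the background scale the POM value is 5.14, which would not have sufficed. STRA6-r1 (chromosome 15, 74202830 to 74203305), 53 bp upstream of an inner start and also inside CCDC33, was called in DMSO alone with 17 reads. STRA6-r3 was called in ATRA alone with 16.01.

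The retinaldehyde dehydrogenases each had a different layout of regions. ALDH1A2, known from the mouse as the main source of retinoic acid in the early embryo, had 8 peaks in ATRA cells, 3 in POM cells, 2 in ATRA+POM cells and 9 in DMSO cells. Of its 10 regions, 6 were called in the ATRA and DMSO lists and in no list with POM, against 6.31% of all regions. This count was chosen after seeing the data. In those 6 the scaled pileup was 9.15 to 25.2 in ATRA cells and 13 to 25 in DMSO cells, low values that overlapped. At the higher of its ATRA and DMSO values, each would have reached 5.96 to 9.99 reads in the POM library, where 4 or 5 suffice for a call. In the ATRA+POM library it would have reached 10.6 to 17.8, where 7 suffice. These are expected counts, and counting error can put a real count below the number needed. At the background scale the POM range would be 3.27 to 5.82, and 3 of the 6 would no longer be callable there, while all 6 would be in ATRA+POM. The 6 lay from upstream of the start to 92.2 kb past the gene end. One of them was ALDH1A2-r3 (chromosome 15, 58066331 to 58066748), upstream of the start by 803 bp in DMSO, where it had 9.15 in ATRA and 18 in DMSO (ratio 0.508, 0.191 to 1.23). The interval includes no change. The regions called in all lists were ALDH1A2-r1, with 22.9 in ATRA, 17.6 in POM, 21.2 in ATRA+POM and 22 in DMSO, and ALDH1A2-r6 with 17.2, 22.7, 22.6 and 15.0 in that order. At ALDH1A2-r6 the ratio of POM to DMSO was 1.51 (0.583 to 3.69), and 2.58 at the background scale.

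Over 4 libraries, the summed scaled pileup of ALDH1A2 was 143 in ATRA, 52.9 in POM, 43.8 in ATRA+POM and 159 in DMSO, with an uncalled region counted as 0. Its span of 1.86 (log2), the widest among the 6 members with a region in all lists, follows in large part from the uncalled regions set to 0, since its regions called in all lists ranged only between 17.6 and 22.9 (ALDH1A2-r1) and between 15.0 and 22.7 (ALDH1A2-r6). Of 14977 genes, the closest in shape over these 4 values were CXCL17, with 292.8 in ATRA, 105.8 in POM, 87.5 in ATRA+POM and 338 in DMSO (Euclidean distance 0.072), C1orf122 (0.078) and PAXX (0.078). C1orf122 had 282.5 in ATRA, 110.8 in POM, 86.1 in ATRA+POM and 312 in DMSO, and PAXX had 160.1, 60.4, 46.6 and 173 in that order. Each had 1 region, called in all lists, so no uncalled region enters their values, unlike those of ALDH1A2. In all, 58 genes lay within a distance of 0.2.

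ALDH1A1, an enzyme of the same step, had 1 region in all lists, ALDH1A1-r3, 30.5 kb upstream of the start, with 18.3 in ATRA, 22.7 in POM, 32.5 in ATRA+POM and 22 in DMSO. Farther upstream, ALDH1A1-r1 was absent from the POM list, with 27.4 in ATRA, 31.1 in ATRA+POM and 25.0 in DMSO. ALDH1A1-r2 was called in the 2 lists with POM alone, with 20.1 in POM and 18.4 in ATRA+POM, and no region was within 20 kb of the start. ALDH1A1-r4 was called in POM alone with 12.6, and ALDH1A1-r5 and ALDH1A1-r6 in ATRA+POM alone with 9.88 and 11.3. ALDH1A3 had 1 region, called in the ATRA and ATRA+POM lists alone, inside the gene 22.8 kb from its start (chromosome 15, 100902514 to 100903090). It had 18.3 in ATRA and 24.0 in ATRA+POM (ratio of ATRA+POM to ATRA 1.31, 0.623 to 2.77). The ATRA+POM height would be 24.0 reads in the DMSO library, where 9 suffice for a call, and 9.53 in the POM library, where 5 suffice. The nearest summit to the ALDH1A3 start lay 6.53 to 6.64 kb upstream in every list, with a scaled pileup of 19.4 in ATRA, 32.7 in POM, 31.1 in ATRA+POM and 27 in DMSO. It went to LOC124903575, a nearer gene.

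DHRS3, the retinaldehyde reductase, had its strongest region in ATRA, POM and DMSO just upstream of its start. DHRS3-r3 (chromosome 1, 12619802 to 12621071, 1.87 kb upstream) had 43.5 in ATRA, 57.9 in POM, 35.3 in ATRA+POM and 55.0 in DMSO. The lowest value was in ATRA+POM, and none of the ratios had an interval that excluded 1. DHRS3-r5 (chromosome 1, 12556516 to 12556820, 11.2 kb past the gene end) was called in the 2 lists with POM alone, with 20.1 in POM and 31.1 in ATRA+POM. Its ATRA+POM height would be 31.1 reads in the DMSO library and 27.2 in the ATRA library, where 8 suffice for a call in either. The other 3 regions of DHRS3 were low, with 11 in DMSO alone at DHRS3-r1, 12.6 in POM alone at DHRS3-r2, and 11.3 in ATRA+POM and 13 in DMSO at DHRS3-r4. DHRS3-r2 ends at 12630331 and DHRS3-r1 begins at 12630341, so they nearly adjoin and count as separate only by this gap.

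CRABP2, the carrier of retinoic acid to the nucleus, had the highest region of the set in every list. CRABP2-r7 (chromosome 1, 156689131 to 156689974, 10.1 kb past the gene end and 12.1 kb from NES) had 274.5 in ATRA, 156.1 in POM, 149.6 in ATRA+POM and 228 in DMSO, from 240, 62, 106 and 228 reads. Its rank was 4.74% in ATRA, 11.2% in POM, 9.40% in ATRA+POM and 7.81% in DMSO. The ATRA+POM value was lower than the ATRA value (ratio 0.545, 0.430 to 0.688) and the DMSO value (0.656, 0.516 to 0.83). The POM value was lower than the DMSO value as well (0.685, 0.509 to 0.911), but at the background scale this ratio turned round to 1.17. In ATRA the value was 1.20 times that of DMSO (1.00 to 1.45), and 1.06 times at the background scale. CRABP2-r6 was called in ATRA+POM with 32.5 and in DMSO with 67 alone, a ratio of 0.485 (0.288 to 0.789), the only member region past 2-fold against DMSO. At the background scale this ratio was 0.539, so it no longer passed. Near the start, CRABP2-r3 (chromosome 1, 156706098 to 156706438, 315 bp upstream) was called in DMSO alone with 34. Its height would be 29.7 reads in ATRA, where a call needs 31, 13.5 in POM, where 12 suffice, and 24.1 in ATRA+POM, where 22 suffice. At the background scale these are 33.9, 7.92 and 21.7, so that ATRA would pass and the other libraries would not. Inside the gene, CRABP2-r5 was absent from the POM list, with 40.0 in ATRA, 24.0 in ATRA+POM and 31 in DMSO. CRABP2-r2, 3.28 kb upstream, was called in ATRA alone with 37.8, a height that would be 37.8 reads in DMSO, where 28 suffice. The local background around CRABP2 was 11.8 to 24.1 reads in ATRA, 1.78 to 4.44 in POM, 3.83 to 9.996 in ATRA+POM and 13.2 to 27.4 in DMSO, above the library backgrounds. Its part in the calls there was not tested.

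CYP26A1, the inducible retinoic acid hydroxylase, had no summit within 1 kb of a start in any list. The nearest summit to the inner start, whose repeat is shown above, was 2082 bp downstream in ATRA, 1923 bp in POM, 1925 bp in ATRA+POM and 2071 bp in DMSO. This was CYP26A1-r1 (chromosome 10, 93075657 to 93076500, inside the gene), with 72.1 in ATRA, 52.9 in POM, 96.0 in ATRA+POM and 58.0 in DMSO. The ATRA+POM value was higher than the DMSO value (ratio 1.66, 1.15 to 2.39) and the POM value (1.82, 1.10 to 3.12, but 1.18 at the background scale). The ATRA value was 1.24 times that of DMSO, and the interval of 0.856 to 1.81 includes no change. CYP26A1-r2, 371 bp past the gene end, had 65.2 in ATRA, 47.9 in POM, 84.7 in ATRA+POM and 68.0 in DMSO, and ATRA+POM stood above POM there as well (1.77, 1.04 to 3.14, but 1.15 at the background scale).

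Farther downstream of CYP26A1, CYP26A1-r7 (chromosome 10, 93124257 to 93125636, 46.9 kb past the end) was its best-ranked region in every list, at 19.8% in ATRA, 26.8% in POM, 18.1% in ATRA+POM and 28.1% in DMSO. It had 78.9 in ATRA, 73.0 in POM, 84.7 in ATRA+POM and 61.0 in DMSO, and all 3 ratios to DMSO had intervals that include 1. That depends on the scale, since the ratio of POM to DMSO was 1.20 and became 2.04 at the background scale. There the ratio to DMSO was 1.54 in ATRA+POM and 1.13 in ATRA. CYP26A1-r8 (chromosome 10, 93150221 to 93151652, 73.0 kb past the end) was called in the ATRA and ATRA+POM lists alone. It had 14 reads in ATRA and 26 in ATRA+POM, which are 16.01 and 36.7 on the scaled measure, a ratio of ATRA+POM to ATRA of 2.29 (1.15 to 4.75), the highest ratio of the set. The ATRA+POM height would be 36.7 reads in DMSO, where 12 suffice, and 14.6 in POM, where 5 suffice. CYP26A1 is the nearest protein-coding gene, and the next is CYP26C1 at 81.4 kb. CYP26A1-r3 was called in DMSO alone with 39, and CYP26A1-r4 in POM alone with 12.6. The CYP26A1-r3 height would be 34.1 reads in ATRA, where 22 suffice, 15.5 in POM, where 9 suffice, and 27.6 in ATRA+POM, where 16 suffice. At the background scale these are 38.9, 9.09 and 24.9, which would also suffice. CYP26A1-r5, 33.0 kb past the end, was absent from the ATRA list, with 12.6 in POM, 14.1 in ATRA+POM and 14 in DMSO.

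CYP26B1, another retinoic acid hydroxylase, had 2 regions in all lists. CYP26B1-r1, 2.63 kb upstream, had 67.5 in ATRA, 75.6 in POM, 46.6 in ATRA+POM and 74.0 in DMSO, and CYP26B1-r3, inside the gene, had 80.1, 68.0, 53.6 and 72.0 in that order. ATRA+POM was the lowest at both, and its ratio to DMSO was 0.630 (0.405 to 0.961) at the first and 0.745 (0.489 to 1.12) at the second. At the background scale these ratios were nearer to no change, at 0.700 and 0.828. That shift of 0.15 (log2) would also bring no change inside the interval of the first. Closest to the start, CYP26B1-r2 (chromosome 2, 72148616 to 72149075) was called in ATRA with 42.3 and in DMSO with 48.0 and in neither list with POM. The summit was 1002 bp from the start in ATRA and 993 bp in DMSO, just outside and just inside the 1 kb limit used for starts. The DMSO height would be 19.1 reads in POM, where 7 suffice for a call, and 34.0 in ATRA+POM, where 13 suffice. CYP26B1-r4, past the gene end, was called with 11.4 in ATRA and 11 in DMSO alone. CYP26C1, the remaining enzyme of the family, had 1 region, called in DMSO alone with 11 reads at a rank of 88.2%.

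**Figure D2:**
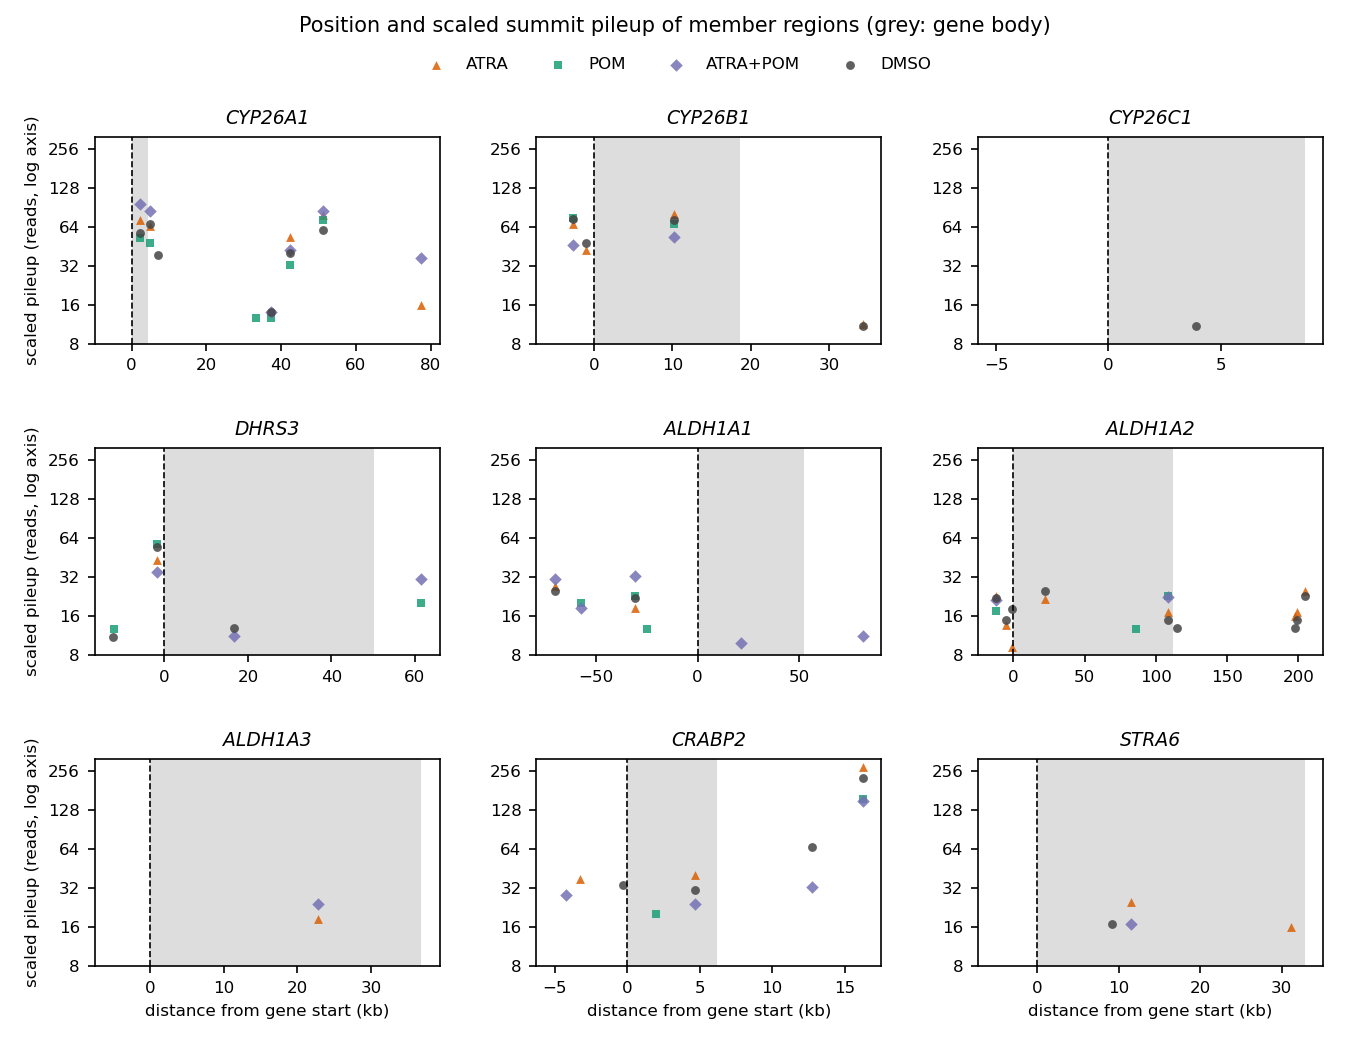
Scaled summit pileup (reads at the depth of DMSO, log axis) against the distance of the summit from the gene start (kb, along the gene's strand) for each member, with the gene body in grey and 1 symbol per library. CYP26A1 has its regions at and downstream of the gene, CRABP2-r7 lies 16.3 kb from the start, and ALDH1A2 has points up to 204.4 kb from its start.

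A summit lay within 1 kb of an annotated start in 61.8% of 15812 protein-coding genes with a start window in ATRA, 59.6% in POM, 60.5% in ATRA+POM and 62.1% in DMSO. Among the 9 members, ATRA cells had 2 (ALDH1A2 and STRA6), POM cells 0, ATRA+POM cells 1 (STRA6) and DMSO cells 4 (CYP26B1, ALDH1A2, CRABP2 and STRA6).

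**Figure D3:**
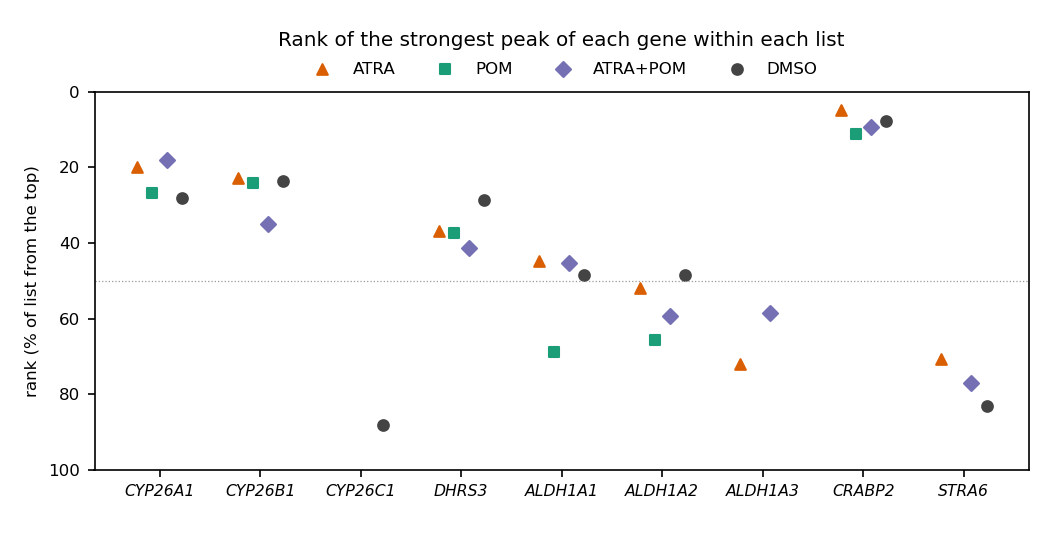
Rank of the best peak of each member gene in each list (% of the list from the top, so higher points are stronger peaks), with 1 symbol per library and no symbol where a list held no peak. CRABP2 is at 4.74% to 11.2%, while STRA6 and ALDH1A3 lie below the dotted line at 50% wherever they were called.

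The comparisons asked how the regions of these genes differed with the retinoid, with pomalidomide and with the pair. The 3 comparisons with DMSO share the DMSO library. Of the 26 member peaks of ATRA cells, 5 overlapped no DMSO peak, and 19.5% of all ATRA peaks did so. Of the 30 member peaks of DMSO cells, 9 overlapped no ATRA peak, against 19.5% of all DMSO peaks. Within the weaker part of the lists, which holds 16 of the 26 and 19 of the 30, 38.0% of all ATRA peaks and 38.0% of all DMSO peaks were unshared. None of the 21 shared regions was 2-fold higher (1.11% of all shared regions) or 2-fold lower (0.778%) in ATRA. Their median log2 ratio was 0.13, against 0.02 over all shared regions.

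After POM, 7 of 20 member peaks overlapped no DMSO peak (27.2% of all POM peaks, and 48.1% of those in the weaker part of that list), and 18 of the 30 DMSO peaks overlapped no POM peak (36.6% of all DMSO peaks). In the weaker part of the DMSO list 62.2% of all peaks had no POM partner. None of the 12 shared regions was 2-fold higher (13.0% of all) or lower (8.91%) in POM, and their median log2 ratio was −0.11, against 0.04 over all. After ATRA+POM, 8 of 24 member peaks overlapped no DMSO peak (32.7% of all ATRA+POM peaks, and 55.8% of the weaker ones), and 14 of the 30 DMSO peaks had no ATRA+POM partner (25.8% of all DMSO peaks, and 46.0% of the weaker ones). Of 16 shared regions, 0 were 2-fold higher (13.8% of all) and 1, CRABP2-r6, was 2-fold lower (9.08%). The median log2 ratio was −0.02, against 0.05 over all.

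Adding POM to ATRA left 10 of the 26 ATRA peaks without an ATRA+POM partner (26.5% of all ATRA peaks, and 47.3% of the weaker ones), among them the 6 of ALDH1A2 and 2 of CYP26B1, and 8 of the 24 ATRA+POM peaks without an ATRA partner (33.3% of all, and 55.9% of the weaker ones). Of 16 shared regions 1, CYP26A1-r8, was 2-fold higher in ATRA+POM (11.8% of all) and 0 were 2-fold lower (8.47%). Adding ATRA to POM left 10 of the 24 ATRA+POM peaks without a POM partner (35.0% of all ATRA+POM peaks, and 63.2% of the weaker ones). It left 5 of the 20 POM peaks without an ATRA+POM partner (17.7% of all POM peaks, and 33.2% of the weaker ones). None of the 14 shared regions passed 2-fold, against 2.94% of all higher and 1.61% lower in ATRA+POM. In all, 79 ratios were computed over these comparisons. Of them 2 passed 2-fold and 10 had a counting interval that excluded 1. The share of all shared regions with such an interval was not computed, so the 10 cannot be called an excess. Some of the 10 intervals would include 1 at the background scale.

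**Figure D4:**
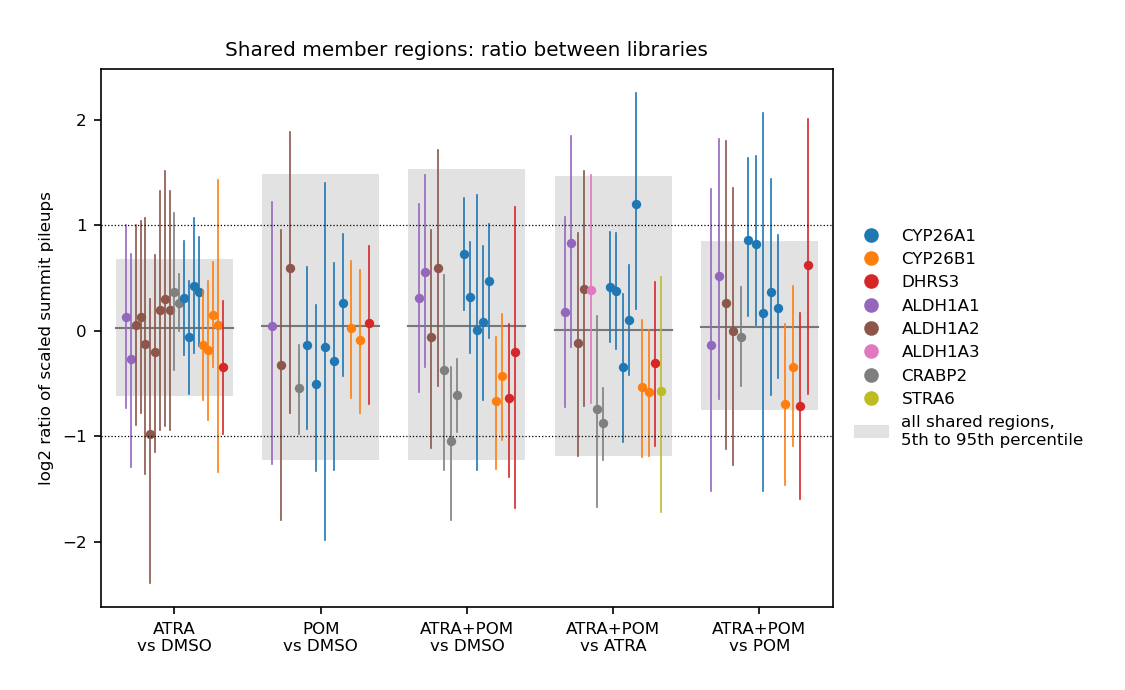
Log2 ratio of scaled summit pileups for the shared member regions in each comparison, coloured by gene, with exact 95% intervals for counting error (vertical lines), the median (grey line) and the 5th to 95th percentile (grey box) of all shared regions, and dotted lines at 2-fold. CRABP2 points are the lowest in ATRA+POM against DMSO and against ATRA, and CYP26A1-r8 is the highest point of the plot.

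Seen by the set of lists that called them, 3 member regions were in both libraries with ATRA and in no other (6.67% of 45, against 2.13% of all regions): CYP26A1-r8, ALDH1A3-r1 and STRA6-r2. The regions in both libraries with POM and in no other were 2, DHRS3-r5 and ALDH1A1-r2 (4.44%, against 6.05%). The ATRA and DMSO lists alone shared 8 (17.8%, against 6.31%), all of ALDH1A2 and CYP26B1. Single lists held 2 in ATRA (7.93% of all regions), 5 in POM (6.94%), 3 in ATRA+POM (13.0%) and 6 in DMSO (7.36%).

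A list of 33 other retinoid genes, among them the retinol dehydrogenases, retinol-binding proteins and carotenoid oxygenases, had 112 regions around 30 of them. ATRA had 73, POM 57, ATRA+POM 73 and DMSO 65, with 38 in all lists (33.9%, against 35.0% of all regions). None of 53 shared regions passed 2-fold in ATRA against DMSO (1.11% of all shared regions were higher and 0.778% lower). Against DMSO, 8 of 39 were 2-fold higher (13.0% of all) and 0 lower (8.91%) in POM. In ATRA+POM 10 of 50 were higher (13.8% of all) and 1 lower (9.08%). This list had 12 regions within 1 kb of a gene boundary, and the 7 that were past 2-fold, gained or lost in a comparison are named. The same share was not computed over all genes. BCO1, the enzyme that cleaves beta-carotene to retinaldehyde, had a region at its start (chromosome 16, 81238337 to 81238950) with 16.01 in ATRA, 68.0 in POM, 90.4 in ATRA+POM and 21.0 in DMSO. Both libraries with POM were above the others, with ratios to DMSO of 3.24 in POM (1.76 to 6.03) and 4.30 in ATRA+POM (2.59 to 7.42). RPE65, the retinoid isomerase of the retinal pigment epithelium, had a region 132 bp from its start that was called with 78.1 in POM and 101.6 in ATRA+POM and in neither of the other lists. DHRS9, a retinol dehydrogenase, had 34.3 in ATRA, 40.3 in POM, 73.4 in ATRA+POM and 18 in DMSO at a gene boundary, a ratio of ATRA+POM to DMSO of 4.08 (2.35 to 7.41). The others of the 7 were weak regions of ADH1C, AKR1B10, BCO2 and RLBP1, at 9 to 19.8 scaled reads.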

How the data were processed

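ATAC-seq peak lists of 4 OPM-2 libraries, 1 per group, were analysed. Peaks were called for each library by itself and the lists are on the build hg38 (per the submitters' processing notes). For aligner, peak caller, settings and Tn5 shift: not given in the sources used here. Every peak as deposited carries the authors' score, fold (taken as the ratio of summit pileup to local background with 1 added to each), −log10 p-value and −log10 q-value. Pileup and background were recovered from the deposited fold and −log10 p-value, and 99.58 to 99.98% of peaks came back within 0.01. This assumes that form of the fold and a p-value from the upper tail of a Poisson distribution. The 5 peaks outside the autosomes and X were left out, and the others were merged where they overlapped by at least 1 bp, and given to the nearest protein-coding gene body in the RefSeq table of GRCh38.p14. Where gene bodies overlapped, the shorter gene was taken. All 9 members matched by symbol.

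Gained and lost mean no overlap by 1 bp in the other list. Shared regions were compared by summit pileup, scaled by the median ratio over regions in all lists, and called at 2-fold. The height that an uncalled region would have had in another library, and the smallest pileup callable there, were projected from the library scales and backgrounds. The height was taken from the list where the region's scaled pileup was highest, so it is the largest of the possible projections. It is an expected count, and reaching the callable number does not ensure a call. No test was possible with 1 library per group. Intervals are exact 95% conditional binomial intervals. Every member was described whatever its values, with values for its best-ranked region, regions within 1 kb of a start and regions gained, lost or past 2-fold, up to the 5 highest per gene. The 6 ALDH1A2 regions that share a pattern are given by their range. The members and lists were chosen with earlier results of these data known. Alternatives were a 20 kb limit, a −log10 q of at least 3, lists of equal length, a 250 bp summit window, 1.5-fold, scaling by background and ranking by fold. The code was tested on simulated data. Python 3.11.15, numpy 2.4.6, pandas 2.3.3, scipy 1.17.1 and matplotlib 3.10.9 were used.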

Additional observations from a re-analysis of the deposited data

Results flagged for a closer look

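At 2 regions a peak was called after the combination and in DMSO but after neither single agent, and the difference was not tested. The share of all merged regions with this pattern was not computed, so whether the members stand out by it is unknown. CRABP2-r6 was called in ATRA+POM with 32.5 and in DMSO with 67 scaled reads, and in neither the ATRA nor the POM list. The DMSO height would have been 58.6 reads in the ATRA library, where 45 suffice for a call, and 26.6 in the POM library, where 16 suffice. The ATRA+POM height was itself 0.485 times that of DMSO. DHRS3-r4 was called in ATRA+POM with 11.3 and in DMSO with 13 scaled reads, and again in neither single-agent list, where 11.4 reads (ATRA, 8 suffice) and 5.16 reads (POM, 4 suffice) would have been held. At the background scale the POM values would be 15.6 at CRABP2-r6 and 3.03 at DHRS3-r4, both too low for a call.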

How the results depend on the processing

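No paired analysis was possible because each group had 1 library. Of 26 counts recomputed with genes limited to 20 kb, 19 stayed within 1.5 times. The regions in POM fell to 12, gained peaks were 4 in POM against DMSO, 5 in ATRA+POM against DMSO and 5 in ATRA+POM against ATRA, lost peaks in ATRA+POM against POM were 3, the 2-fold higher region of ATRA+POM against ATRA dropped out (0), and the ALDH1A2 regions in ATRA and DMSO alone were 3. With a −log10 q of at least 3, gained peaks were 2 in POM against DMSO and 4 in ATRA+POM against ATRA, lost peaks in ATRA+POM against POM were 0, and 0 regions were 2-fold lower in ATRA+POM against DMSO. With lists of equal length, gained peaks in ATRA+POM were 3 against ATRA and 5 against POM. Counting a peak as absent with no summit within 250 bp, 8 were lost in ATRA+POM against POM. At 1.5-fold, 1 region was lower in ATRA, 1 higher in POM, and 2 higher and 4 lower in ATRA+POM, all against DMSO. ATRA+POM then had 2 higher and 2 lower against ATRA, and 3 higher and 2 lower against POM. At the background scale, 1 was lower in ATRA and 2 higher in POM, and 0 lower in ATRA+POM, against DMSO, while ATRA+POM had 2 higher against ATRA and 2 lower against POM. At that scale the uncalled member regions whose projected height would be callable in POM were 8, against 25 by the main scale. Those of the 6 ALDH1A2 regions were 3. The cause was not tested in any of these. Callable heights were not counted over all merged regions, so whether the members differ in this is unknown. Ranking by fold moved none of the 4 median ranks beyond the limit, but put the best CRABP2 peak at 17.4% in ATRA, 24.5% in POM, 23.4% in ATRA+POM and 30.0% in DMSO. The counts of regions in both ATRA lists alone (3, or 2 within 20 kb) and of ALDH1A2 regions, and those of callable heights, were chosen after seeing the data. Low depth in POM limits what an absent peak there shows.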
